A study of Mus musculus with 10 samples.

Results

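The cytotoxic granule genes examined here are 10 genes chosen by name from the 53656 genes of the count tables: the granzymes Gzma, Gzmb, Gzmc, Gzmk and Gzmm, the pore-forming protein gene Prf1, the granule proteoglycan gene Srgn, the granule membrane protein gene Nkg7, the cathepsin gene Ctsw and the granzyme inhibitor gene Serpinb9. They were compared between TOX KO and TOX WT SMARTA CD4 T cells, which carry a transgenic T cell receptor for a viral glycoprotein peptide. Naive cells of each genotype had been transferred into cytoxan-treated B6 mice bearing B16-GP61, a melanoma line that carries that peptide, and RNA was made from cells sorted from the tumour-draining lymph node at day 11. The 6 TOX KO libraries came from CD4+ Ly5.1+ Ly5.2- cells with low PD1, LAG3 and CD39. The 4 TOX WT libraries came from CD4+ Ly5.1+ Ly5.2+ cells with high PD1, LAG3 and CD39. Genotype, congenic marker and sort gate differed together, so their contributions to any difference below cannot be told apart. How Tox was deleted, the age of the mice, any pooling of animals and whether both genotypes shared a host are not given in the sources used here. The labels do not state that libraries of 1 genotype came from separate mice; the spread behind each p-value is that among the sequenced libraries and could be technical.

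Cytotoxic lymphocytes kill by releasing secretory lysosomes onto a target cell. Perforin opens the target's membrane and granzymes, a family of serine proteases, enter and cleave proteins there. Serglycin, the product of Srgn, holds granzymes and perforin in the granule, and the cathepsin encoded by Ctsc trims granzymes to their active form. Serpinb9 encodes a cytosolic serpin that blocks granzyme B and protects the killer cell from its own protease. CD8 T cells and NK cells are the usual carriers of this machinery, while CD4 T cells with a TH1 or cytotoxic programme can also make parts of it.

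The libraries held 31939816 to 55784453 counts assigned to genes. Tox, the targeted gene, stood at 236 ± 88.0 CPM (a gene's count over the library's total scaled for composition; mean ± SD, n = 4) in TOX WT and at 31.0 ± 20.8 CPM (n = 6) in TOX KO, a log2 fold change of -2.93 (SE 0.48) with an adjusted p of 0.0102. Cd4 was present in every library, at 1236 ± 556 CPM in TOX WT and 1331 ± 424 CPM in TOX KO. The share of immunoglobulin counts was 0.815% to 16.7% in TOX WT libraries, against 0.0835% to 0.187% in TOX KO libraries. TOX WT replicate 1 stood apart from its group, with 14365 genes counted at least once against 19101 to 19775 in the other TOX WT libraries. Library numbers 1 to 3 (TOX KO replicates 1 to 3, TOX WT replicate 1) and 4 to 8 (the other libraries) formed 2 sets that cross the genotypes. Across genes, deviations from the group means in TOX WT replicate 1 correlated at 0.289 to 0.317 with those in TOX KO replicates 1 to 3. With those in TOX KO replicates 4 to 6 they correlated at -0.403 to -0.260. For TOX WT replicates 2 to 4 the values were -0.282 to -0.0919 and 0.131 to 0.304, in that order. Deviations within a genotype cancel out for each gene, so the opposite signs for these libraries follow in part from arithmetic. The TOX WT side of this pattern rests on replicate 1 alone. Results that turn on 1 library or on the set are given both ways.

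Across the granule genes, levels in TOX KO cells were mostly a small part of those in TOX WT cells: the mean of Gzma, Gzmb, Gzmk, Prf1 and Nkg7 in TOX KO was 3.14% to 9.66% of that in TOX WT. Ctsw stood at 17.7%, the inhibitor Serpinb9 at 31.9% and the proteoglycan Srgn at 76.5%, while Gzmc and Gzmm, low in both genotypes, stood at 63.1% and 138%. Prf1, Nkg7 and Ctsw fell in TOX KO cells at an adjusted p under 0.05 in edgeR's quasi-likelihood test with Benjamini-Hochberg adjustment over 14214 genes, and none of the 10 rose. All 10 passed the filter on low counts. Over all genes tested, 2.7% were called lower, 0.429% higher and 3.13% in either direction in TOX KO by the same rule. Those are 384 lower and 61 higher; with libraries scaled to 8 T cell receptor complex genes, which moved the median of all genes by -0.83, they were 1862 and 17, and 7 of the 10 members were called lower. At an unadjusted p under 0.05, 7 of the 10 were lower and 0 higher, and DESeq2 and limma-voom each called 7 lower and 0 higher. Over all genes tested, 10.8% were lower and 7.15% higher at an unadjusted p under 0.05, DESeq2 called 7.03% lower and 4.31% higher, and limma-voom 4.78% and 1.44%. In 7 of the 10, Gzma, Gzmb, Gzmk, Prf1, Nkg7, Ctsw and Serpinb9, every TOX WT library was above every TOX KO library, a pattern seen in 6.31% of all genes tested. In 0 of the 10 was every TOX KO library above every TOX WT library, against 2.59% of all genes. The median log2 fold change of the 10 was -2.94, beside -0.12 over all genes tested. The 10, like the other gene lists below, were chosen with earlier results of these data known. Values over all genes are therefore a reference and not a test of the list. In RNA from sorted populations, fewer cells making a transcript and less transcript per cell cannot be told apart.

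**Figure D1:**
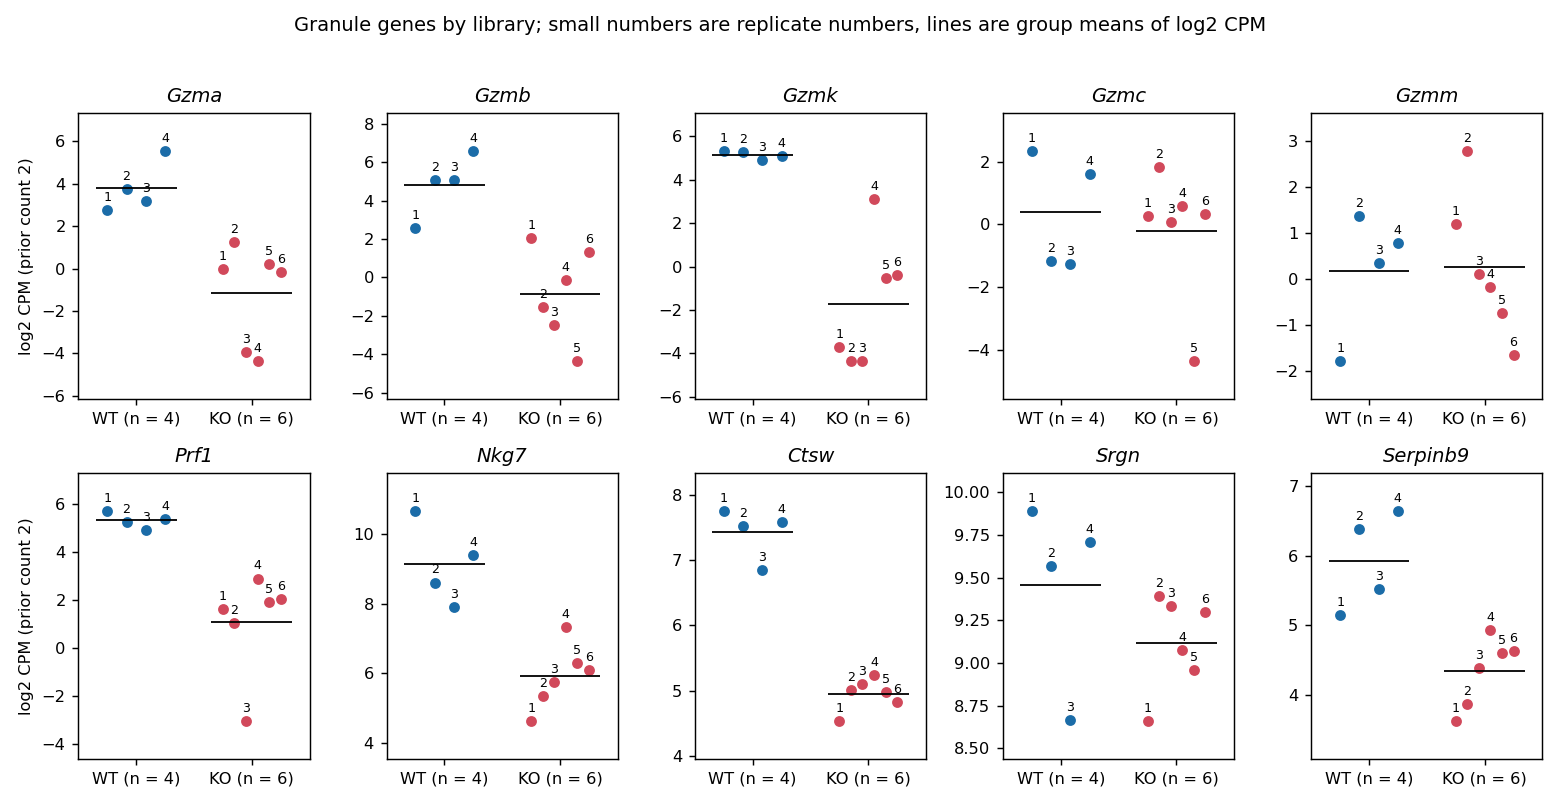
Level of each granule gene in each library, as log2 CPM with a prior count of 2 on the vertical axis, for 4 TOX WT and 6 TOX KO libraries; points carry replicate numbers and lines are group means. For Prf1, Ctsw and Gzmk the groups are far apart, while for Srgn, Gzmc and Gzmm they overlap.

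The members lie at several places in the genome (GRCm38, as the count tables give them). Gzma (chr13:113093825-113100981, minus strand) and Gzmk (chr13:113171608-113225908, minus strand) are neighbours on chromosome 13, which also holds Serpinb9 (chr13:33003250-33017957, plus strand). Gzmb (chr14:56258838-56262260, minus strand) and Gzmc (chr14:56231441-56234656, minus strand) belong to the granzyme cluster of chromosome 14. Gzmm (chr10:79689020-79695261, plus strand), Prf1 (chr10:61297833-61304680, plus strand) and Srgn (chr10:62493833-62527451, minus strand) are on chromosome 10. Nkg7 lies at chr7:43437073-43438249 on the plus strand and Ctsw at chr19:5465240-5468498 on the minus strand. No exon of a member overlaps an exon of another gene in the tables.

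To show the promoters of genes that differed together, the bases before the RefSeq start site (GRCm38.p6) were read for 9 of the 10 members, Ctsw being the one not matched. Nkg7 and Prf1 are printed because both fell in TOX KO cells, and Gzma, Gzmb and Gzmk because they had the lowest TOX KO levels relative to TOX WT. Each sequence runs 5′ to 3′ on the gene's own strand and leaves out bases annotated as exon of that gene in the count tables. The one for Gzmk precedes the RefSeq start and lies inside the longer gene span of the tables, in an intron. Capitals mark matches to motifs searched on both strands: TGTGGT (the RUNX core, ACCACA on the other strand), GGTGTGA (a T-box site), TGANTCA (AP-1) and TTCCNGGAA (STAT5).
Nkg7 chr7:43436888-43437072 plus: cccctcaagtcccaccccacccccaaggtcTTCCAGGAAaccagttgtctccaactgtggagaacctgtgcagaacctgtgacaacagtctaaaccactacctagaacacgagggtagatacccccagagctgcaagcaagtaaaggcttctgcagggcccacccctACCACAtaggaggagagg
Prf1 chr10:61297586-61297832 plus: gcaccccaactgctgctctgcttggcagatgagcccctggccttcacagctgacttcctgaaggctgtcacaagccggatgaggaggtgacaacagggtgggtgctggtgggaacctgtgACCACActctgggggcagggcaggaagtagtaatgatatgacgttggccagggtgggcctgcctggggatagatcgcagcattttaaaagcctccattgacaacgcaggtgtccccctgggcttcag
Gzmb chr14:56262335-56262584 minus: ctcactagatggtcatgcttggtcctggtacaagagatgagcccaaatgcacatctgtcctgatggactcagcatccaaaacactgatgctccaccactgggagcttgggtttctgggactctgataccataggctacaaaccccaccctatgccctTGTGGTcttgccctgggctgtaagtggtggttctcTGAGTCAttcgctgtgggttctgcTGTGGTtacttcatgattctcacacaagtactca
Gzma chr13:113100982-113101231 minus: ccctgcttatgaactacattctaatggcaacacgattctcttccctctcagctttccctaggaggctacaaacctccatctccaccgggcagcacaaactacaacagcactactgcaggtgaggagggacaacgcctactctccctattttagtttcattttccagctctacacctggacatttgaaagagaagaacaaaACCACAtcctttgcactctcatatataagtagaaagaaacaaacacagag
Gzmk chr13:113180966-113181215 minus: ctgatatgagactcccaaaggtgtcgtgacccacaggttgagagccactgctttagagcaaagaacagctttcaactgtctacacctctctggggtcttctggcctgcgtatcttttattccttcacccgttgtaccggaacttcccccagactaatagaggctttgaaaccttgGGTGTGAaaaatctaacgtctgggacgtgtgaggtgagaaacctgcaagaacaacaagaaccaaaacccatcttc
Within the full 250 bases before the start, TGTGGT occurred in 14.0% of 32851 RefSeq promoters and in 7 of the 9 members, namely Gzma, Gzmb, Gzmc, Gzmm, Prf1, Srgn and Nkg7. These 9 members have 11 start sites in the table, and 7 of the 11 promoters held it. GGTGTGA occurred in 3.33% of promoters and in 3 members, Gzmk, Gzmm and Nkg7; the copy in Nkg7 falls in bases annotated as exon and is not printed. The TGTGGT match of Srgn lies in exon bases too, before its second start site. TGANTCA, in 6.75% of promoters, was found in Gzmb alone among the members, and TTCCNGGAA, in 0.913%, in Nkg7 alone. GGAAGTG (ETS), in 8.55% of promoters, had 0 matches in the members. Gzmc and Gzmm, whose groups overlapped, carry TGTGGT as well as Nkg7 and Prf1.

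Among the granzymes, the effector proteases Gzma, Gzmb and Gzmk were below 1 CPM in the median TOX KO library and at 5.87 CPM or more in every TOX WT library. Gzmb encodes the protease that starts apoptosis by cleaving caspases and their substrates. It stood at 5.87, 33.3, 33.4 and 95.0 CPM in TOX WT replicates 1 to 4, against a lowest, median and highest TOX KO value of 0, 0.580 and 4.11 CPM. The groups did not overlap, although TOX WT replicate 1 was only 1.43 times the highest TOX KO library, and the TOX WT libraries themselves spanned a wide range. The mean was 41.9 ± 37.7 CPM (n = 4) in TOX WT and 1.31 ± 1.65 CPM (n = 6) in TOX KO. The log2 fold change was -4.99 (SE 1.35) with an adjusted p of 0.0813, which missed the threshold. It passed without TOX WT replicate 1 (adjusted p 0.0317), with DESeq2 (0.000726), with limma-voom (0.0333) and scaled to T cell receptor complex genes (0.0342). The other 9 of 10 fits that left out a library did not call it, with adjusted p up to 0.270 without TOX WT replicate 4.

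Gzma encodes a tryptase-like granzyme that is abundant in NK cells and memory CD8 T cells. TOX WT replicates 1 to 4 held 6.64, 13.6, 9.18 and 46.4 CPM, and the TOX KO libraries had a lowest, median and highest value of 0, 0.896 and 2.36 CPM. Every TOX WT library was at least 2.82 times the highest TOX KO library, and replicate 4 was the highest of its group, as it was for Gzmb. That library also had the highest TOX WT share of immunoglobulin counts (16.7%). It held the highest TOX WT sums of myeloid and dendritic cell markers (7462 CPM) and of NK cell markers (572 CPM), lists described below. Sums of B cell and plasma cell markers and of plasmacytoid dendritic cell markers were highest in TOX WT replicate 2 (12382 and 1004 CPM). Whether such cells account for this spread was not tested. For Gzma the log2 fold change of -4.42 (SE 1.28) had an adjusted p of 0.104. It passed without TOX WT replicate 1 (0.0484), in DESeq2 (0.00271), in limma-voom (0.0318) and scaled to T cell receptor complex genes (0.0333). The other 9 of 10 fits that left out a library did not call it, with adjusted p up to 0.363 without TOX WT replicate 4.

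Gzmk, another tryptase-like granzyme and one typical of memory-like T cells, showed the most even TOX WT values of the granzymes. These were 40.0, 39.4, 30.6 and 33.9 CPM, a mean of 35.9 ± 4.53. In TOX KO replicates 1 to 6 the values were 0.0284, 0, 0, 8.50, 0.638 and 0.721 CPM. One TOX KO library, replicate 4, thus stood far above the other 5, yet still 3.60 times below the lowest TOX WT library. The log2 fold change of -4.45 (SE 1.66) did not pass the threshold (adjusted p 0.196), nor did it in any of the 10 fits that left out a library. Without TOX KO replicate 4 the log2 fold change was -6.92 with an adjusted p of 0.0509. DESeq2 and limma-voom called it, at adjusted p 0.0413 and 0.00556.

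Gzmc and Gzmm were low in both genotypes. Gzmc, a member of the chromosome 14 cluster made by strongly activated killer cells, held 5.03, 0.399, 0.373 and 3.04 CPM in TOX WT replicates 1 to 4 and 0, 1.19 and 3.50 CPM as the lowest, median and highest TOX KO values. The groups overlapped in part, with a log2 fold change of -0.66 (SE 1.21, adjusted p 0.809) that turned to 0.14 without TOX WT replicate 1 (adjusted p 0.955). Of the 845 windows of 50 bases in its transcript, the read length used, 35 (4.14%) also occur in other genes, mostly in Gzme, so a small part of its reads cannot be assigned to it alone. Gzmm, the granzyme of innate-like lymphocytes, held 0.242, 2.51, 1.22 and 1.66 CPM in TOX WT, against 0.271, 0.936 and 6.77 CPM in TOX KO. Its highest value was in TOX KO replicate 2, and the log2 fold change of 0.47 (SE 0.995, adjusted p 0.837) became -0.46 without that library (adjusted p 0.844) and -0.25 when scaled to T cell receptor complex genes (adjusted p 0.895).

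The granzyme transcripts that remained in TOX KO cells were few. Per kilobase of gene length, the 5 granzymes summed to 45.3 to 141 CPM per kb in the TOX WT libraries and 1.95 to 11.1 CPM per kb in the TOX KO libraries, from 2392 to 6387 and from 105 to 609 granzyme counts. Gzmk made up 63.6%, 42.2%, 39.6% and 17.3% of that sum in TOX WT replicates 1 to 4, and Gzmb 9.03%, 34.5%, 41.8% and 46.9%. The make-up of the granzyme pool therefore differed among TOX WT libraries: Gzmk led in replicates 1 and 2, and Gzmb in replicates 3 and 4. Gzma took 14.6%, 20.1%, 16.4% and 32.7%. In TOX KO libraries Gzmc had a median share of 24.5% (range 0% to 58.4%) and Gzmm of 21.1% (3.96% to 41.6%), whereas neither passed 12.4% in any TOX WT library. Shares in TOX KO rest on small counts and varied widely, Gzmk for example from 0% to 68.5%.

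**Figure D2:**
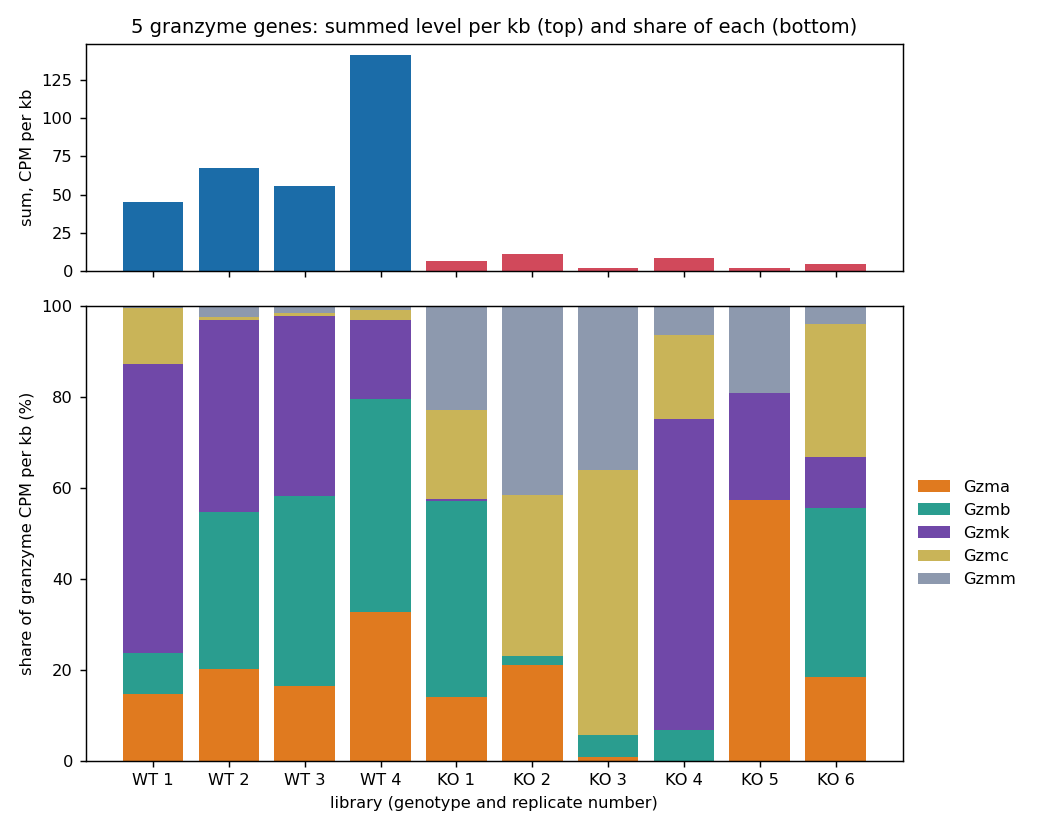
Summed level of the 5 granzyme genes per library in CPM per kb (upper panel) and the share of each granzyme in that sum in percent (lower panel), by genotype and replicate number. TOX WT sums lie between 45.3 and 141 CPM per kb with Gzmk, Gzmb and Gzma as the main parts, and TOX KO sums between 1.95 and 11.1.

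Counts of 0 were limited to the granzymes among the members, with 5 such values in 4 TOX KO libraries: Gzmk in replicates 2 and 3, Gzma in replicate 4, and Gzmb and Gzmc in replicate 5. At these depths a count of 0 allows up to 3 counts, or 0.0554 to 0.0761 CPM across the libraries, which covers counting error only.

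Prf1, which encodes perforin, fell in TOX KO cells with little spread among the TOX WT libraries. TOX WT replicates 1 to 4 held 52.7, 37.8, 30.4 and 41.5 CPM, and TOX KO libraries 0.0739, 3.37 and 7.41 CPM as the lowest, median and highest values. The lowest TOX WT library was 4.11 times the highest TOX KO library, the widest such gap among the 10 genes. The mean was 40.6 ± 9.30 CPM (n = 4) in TOX WT and 3.38 ± 2.44 CPM (n = 6) in TOX KO, with a log2 fold change of -3.59 (SE 0.82) and an adjusted p of 0.0422. This call was close to the threshold and was lost in 7 of the 10 fits that left out a library, with adjusted p up to 0.125 without TOX WT replicate 4. It was also lost with immunoglobulin genes left out (adjusted p 0.0583) and with no filter on low counts (0.0569).

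Nkg7 encodes a small membrane protein of cytotoxic granules that is needed for their release. It fell to 9.66% of the TOX WT mean in TOX KO cells. TOX WT replicates 1 to 4 held 1640, 391, 239 and 676 CPM. TOX KO libraries held 24.5, 61.2 and 161 CPM as the lowest, median and highest values, the highest being replicate 4, the library that was also highest for Gzmk and Prf1. TOX WT replicate 1 was more than any other library, and the lowest TOX WT library was 1.49 times the highest TOX KO library. The log2 fold change was -3.37 (SE 0.62) with an adjusted p of 0.0170. Without TOX WT replicate 1 it was -2.61, and the call was lost in 1 of the 10 fits, that without TOX WT replicate 4 (adjusted p 0.0528).

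Ctsw, which encodes the papain-like protease lymphopain of NK cells and CD8 T cells, had the smallest adjusted p of the members. TOX WT replicates 1 to 4 held 217, 184, 115 and 192 CPM, and TOX KO libraries 23.1, 31.8 and 37.9 CPM as the lowest, median and highest values. The TOX KO libraries lay close together, and the lowest TOX WT library was 3.03 times the highest of them. The mean was 177 ± 43.6 CPM (n = 4) against 31.2 ± 5.04 CPM (n = 6), with a log2 fold change of -2.50 (SE 0.26) and an adjusted p of 0.00138. It was called in all 10 fits that left out a library, with adjusted p between 0.000921 and 0.00800.

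Srgn, the granule proteoglycan gene that most leukocytes express, was high in both genotypes. TOX WT replicates 1 to 4 held 950.3, 759, 407 and 836 CPM, and TOX KO libraries 405, 584 and 673 CPM as the lowest, median and highest values. All TOX KO libraries lay below TOX WT replicates 1, 2 and 4, while TOX WT replicate 3 lay at the bottom of the TOX KO range. The log2 fold change of -0.39 (SE 0.26) did not pass the test (adjusted p 0.476) and passed in none of the fits that left out a library. Scaled to T cell receptor complex genes, Srgn was called lower.

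Serpinb9, the inhibitor of granzyme B, stood at 31.9% of its TOX WT mean in TOX KO libraries, and the difference missed the threshold narrowly. TOX WT replicates 1 to 4 held 35.5, 83.7, 46.0 and 100.3 CPM, and TOX KO libraries 12.3, 22.5 and 30.6 CPM as the lowest, median and highest values. The groups did not overlap, with the lowest TOX WT library 1.16 times the highest TOX KO library. The log2 fold change was -1.65 (SE 0.39) with an adjusted p of 0.0504. It passed without TOX WT replicate 1 (0.0138) and without TOX WT replicate 3 (0.0428), reached 0.245 at most when another library was left out, and passed in DESeq2 (0.00157), in limma-voom (0.0443) and with library set as a term (0.0360). In its transcript 13 of 3423 windows of 50 bases (0.380%) are shared, with Serpinb9b.

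**Figure D3:**
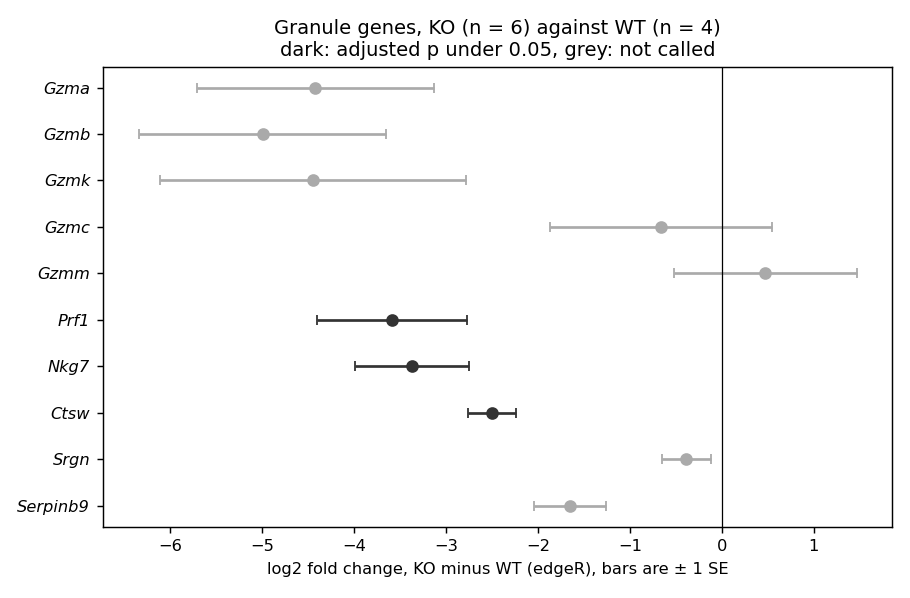
Log2 fold change of each granule gene in TOX KO relative to TOX WT on the horizontal axis, with bars of 1 SE from the edgeR fit; dark points are genes called at an adjusted p under 0.05. Ctsw, at -2.50 with an SE of 0.26, has a far shorter bar than Gzmk, at -4.45 with an SE of 1.66.

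**Figure D4:**
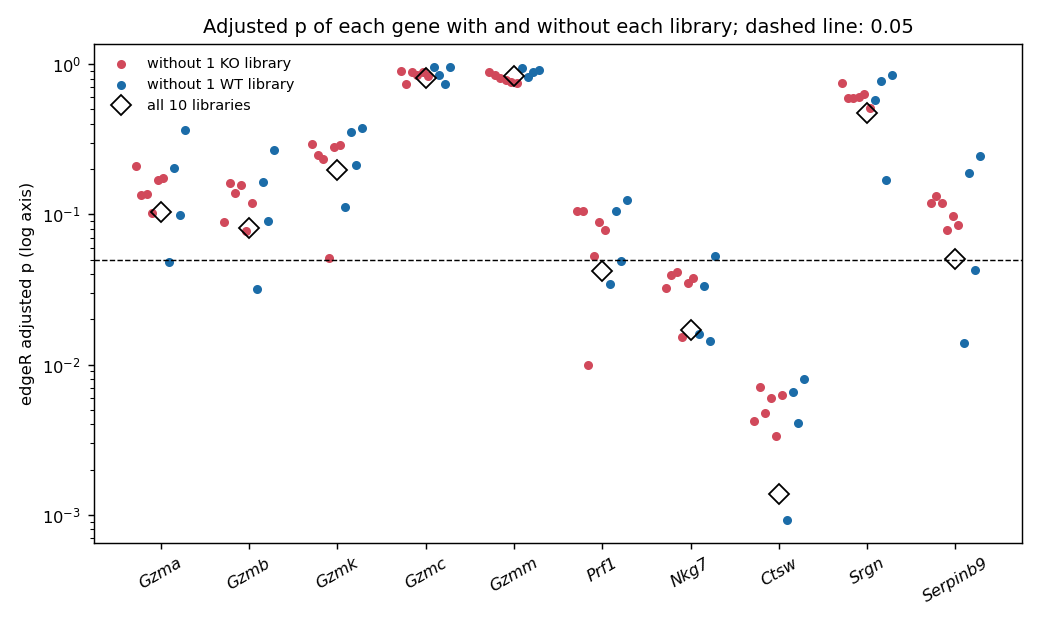
Adjusted p of each granule gene (edgeR, log axis) with all 10 libraries (diamonds) and after leaving out each TOX WT or TOX KO library (points); the dashed line is the threshold of 0.05. Ctsw stays under the line in all 10 fits, Nkg7 crosses it once and Prf1 in 7.

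The order of the members by level per kilobase of gene length changed between the genotypes. In TOX WT cells Nkg7 led at 806 ± 688 CPM per kb (n = 4), followed by Srgn at 336 ± 107, Ctsw at 143 ± 35.4, Gzmb at 29.2 ± 26.3, Gzmk at 25.9 ± 3.26, Serpinb9 at 19.0 ± 8.78, Gzma at 18.8 ± 18.4, Prf1 at 15.7 ± 3.60, Gzmc at 2.47 ± 2.52 and Gzmm at 0.958 ± 0.641. Neighbours from Gzmb down to Prf1 differed by less than the larger of their SDs, as did Gzmc and Gzmm, and the range of Nkg7 overlapped that of Srgn. In TOX KO cells Srgn led at 257 ± 47.0 CPM per kb (n = 6), then Nkg7 at 77.8 ± 52.7, Ctsw at 25.3 ± 4.09 and Serpinb9 at 6.06 ± 1.95. The other 6 lay between 0.877 and 1.56 CPM per kb and did not differ beyond their spread. Nkg7 was 124% to 415% of Srgn in the TOX WT libraries and 14.3% to 71.8% in the TOX KO libraries, so the 2 most abundant members changed places in every library. Among all 14214 genes tested, ranked by level per kilobase, Nkg7 stood between ranks 29 and 162 in TOX WT and between 246 and 2601 in TOX KO.

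The genes whose profile over the 10 libraries was most like that of a member were found by the root mean square difference of log2 CPM, each gene centred on its own mean. For Nkg7 these were Cdk1, at 0.249, and Cdkn3, at 0.524, which encode a mitotic kinase and a kinase-associated phosphatase. Cdk1 stood at 131 CPM in TOX WT and 10.1 CPM in TOX KO. For Prf1 they were Fah (0.639) and Ncaph (0.729), for Ctsw Arl5c (0.283) and Fabp5 (0.316), and for Srgn Ostc (0.116) and Rabepk (0.123). Gzmb was nearest to Syk (0.886), a kinase gene highly expressed in B cells and myeloid cells, which stood at 376 CPM in TOX WT and 8.42 CPM in TOX KO, and to Prdm1 (1.01). Gzma was nearest to Anxa1 (1.43) and Fgd2 (1.44), Gzmk to Dnase1l3 (1.00) and Lrp1 (1.02), Gzmc to Setd7 (0.860) and Reep3 (1.12), and Gzmm to Ankle2 (0.663) and Wnk1 (0.701). Serpinb9 was nearest to Ppid (0.245) and Skap2 (0.268). Among the members themselves, Ctsw and Serpinb9 were the closest pair (0.655), then Nkg7 and Ctsw (0.803).

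Of the other genes of the granule pathway, 52 in 4 lists, 38 could be tested, and 5 fell and 0 rose in TOX KO cells. That is beside 2.7% and 0.429% of all genes; at an unadjusted p under 0.05, 12 were lower and 2 higher, and DESeq2 called 9 lower and 1 higher and limma-voom 6 lower and 0 higher. The median log2 fold change of the 38 was -0.10, close to that of all genes. Genes of the machinery that moves and fuses granules did not pass the test: of the 16 exocytosis genes tested, 0 fell and 0 rose (1 lower and 2 higher at an unadjusted p under 0.05; DESeq2 0 lower and 1 higher, limma-voom 1 lower and 0 higher). Among them Rab27a, the small GTPase that docks granules, stood at 55.8 ± 14.7 CPM (n = 4) in TOX WT and 54.3 ± 20.6 CPM (n = 6) in TOX KO, and Stxbp2, a fusion partner of syntaxin 11, at 314 ± 21.0 and 382 ± 77.0 CPM. Unc13d, which primes granules for fusion, stood at 263 ± 152 and 589 ± 223 CPM (adjusted p 0.228). Others were lower in TOX KO without passing. Sytl3, a synaptotagmin-like gene, stood at 21.9 ± 7.36 and 2.14 ± 4.05 CPM (log2 fold change -3.36, adjusted p 0.265), with every TOX WT library above every TOX KO library. The log2 fold changes of Snap23 and Lyst were -1.85 and -1.69 (adjusted p 0.311 and 0.313). Snap23 stood at 0.580 CPM in TOX WT replicate 1, 37.4 to 71.5 CPM in replicates 2 to 4 and at most 17.4 CPM in TOX KO. For Lyst these values were 0.894, 17.9 to 25.6 and at most 10.2 CPM. For some other exocytosis genes TOX WT replicate 1 was instead the highest library of its group.

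The pathway genes that fell were lysosomal proteases, a lysosomal membrane protein and serpins. Ctsh, a cathepsin of lysosomes, stood at 314 ± 80.9 CPM (n = 4) in TOX WT and 11.7 ± 8.42 CPM (n = 6) in TOX KO (log2 fold change -4.74, SE 0.74, adjusted p 0.00806). Cd63, a tetraspanin of secretory lysosomes, stood at 78.4 ± 50.9 and 2.69 ± 2.57 CPM (log2 fold change -4.86, SE 0.77, adjusted p 0.00895). Ctsc, which activates granzymes, fell less, from 398 ± 199 to 136 ± 23.1 CPM (log2 fold change -1.55, SE 0.34, adjusted p 0.0376), and lost its call in 9 of the 10 fits that left out a library, with adjusted p up to 0.206. It was also lost with library set as a term (0.0761), without immunoglobulin genes (0.0621) and with no filter on low counts (0.0675). Serpinb1a, an inhibitor of neutrophil and granule proteases, stood at 234 ± 108 and 8.56 ± 3.19 CPM (log2 fold change -4.77, SE 0.45, adjusted p 0.000932), and Serpina3g at 412 ± 180 and 36.8 ± 21.5 CPM (log2 fold change -3.49, SE 0.50, adjusted p 0.00516). These genes other than Ctsc kept their call in all 10 such fits. Several of them, Ctsh, Cd63 and Ctsc among them, are also expressed by B cells and myeloid cells.

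The remaining granzyme genes, Gzmd, Gzme, Gzmf, Gzmg and Gzmn, had 0 counts in all libraries apart from Gzmf, which was at 2.32 CPM in TOX WT replicate 1. None of these 5 could be tested.

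Markers of other cell types moved with genotype beside the granule genes. Over all genes, 2.7% fell and 0.429% rose, or 10.8% and 7.15% at an unadjusted p under 0.05 in edgeR. Of 14 B cell and plasma cell markers tested, 9 fell and 0 rose (12 and 0 at an unadjusted p under 0.05). Their summed level was 3414 to 12382 CPM in TOX WT and 140 to 1021 CPM in TOX KO. Xbp1 alone held 57.8 to 715 CPM of the TOX KO sums. Its mean was higher in TOX KO, at 358 ± 287 CPM against 222 ± 182 CPM in TOX WT (edgeR adjusted p 0.681). Of 18 myeloid and dendritic cell markers tested, 2 fell and 0 rose (12 and 0 at an unadjusted p under 0.05), with sums of 1346 to 7462 and 4.48 to 261 CPM. Plasmacytoid dendritic cell markers, from cells that can make granzyme B, summed to 686 to 1004 CPM in TOX WT and 47.2 to 167 CPM in TOX KO. Of the 6, 3 fell and 0 rose (4 lower and 1 higher at an unadjusted p under 0.05; DESeq2 2 lower and 1 higher, limma-voom 3 and 0). Ly6d alone made up 629 to 971 CPM of the TOX WT sums, and Pacsin1 was the higher one, at 26.8 ± 21.9 CPM in TOX WT and 74.3 ± 18.4 CPM in TOX KO (adjusted p 0.204). Their defining gene Siglech was at 0, 18.9, 11.2 and 15.1 CPM in TOX WT replicates 1 to 4. The part of these cells in the granule results was not tested.

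NK cells and CD8 T cells are the cells best known for granules. Of the 10 NK cell markers, 5 could be tested; Tyrobp and Fcer1g, adaptor genes that myeloid cells share, fell (adjusted p 0.0159 and 0.0167), and Klrb1c, which encodes NK1.1, rose from 32.0 ± 20.1 CPM (n = 4) in TOX WT to 224 ± 38.8 CPM (n = 6) in TOX KO (log2 fold change 2.81, SE 0.48, adjusted p 0.0123). Without TOX WT replicate 4 these 3 genes missed the threshold (adjusted p 0.0625, 0.0705 and 0.0647 in that order), and Tyrobp did within library numbers 4 to 8 (0.0552). The list summed to 186 to 572 CPM in TOX WT and 184 to 276 CPM in TOX KO, but different genes made up the sums. Klrb1c alone held 167 to 273 CPM in TOX KO libraries and 8.17 to 56.9 CPM in TOX WT libraries. Tyrobp and Fcer1g had TOX WT means of 123 and 126 CPM and TOX KO means of 4.96 and 7.76 CPM. Of the 5 tested, 4 had a negative log2 fold change, and the median was -4.02. At an unadjusted p under 0.05 in edgeR, 3 were lower and 1 higher. Ncr1, the defining NK cell receptor gene, was at 0, 6.53, 4.13 and 10.7 CPM in TOX WT replicates 1 to 4 and at most 3.23 CPM in TOX KO. Cd8a stood at 28.6 ± 12.3 CPM in TOX WT and 6.36 ± 6.21 CPM in TOX KO, and Cd8b1 at 66.4 ± 15.4 and 47.8 ± 14.0 CPM. Neither passed the test. Of 4 gamma delta T cell markers tested, 0 fell and 0 rose (0 and 2 at an unadjusted p under 0.05; DESeq2 0 and 1, limma-voom 0 and 0), with sums of 115 to 161 CPM in TOX WT and 151 to 309 CPM in TOX KO. Of 10 CD4 T cell markers, 0 fell and 1, Cd5, rose (0 and 3 at an unadjusted p under 0.05; DESeq2 and limma-voom 0 and 1), though not when scaled to T cell receptor complex genes (adjusted p 0.205). Mast cell and basophil markers summed to 0 to 15.5 CPM in TOX WT, and Cpa3 was at most 0.443 CPM in any library.

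In TOX WT replicate 1, Ncr1 and Siglech were at 0 and the myeloid receptor gene Csf1r at 1.30 CPM, against 106, 226 and 463 CPM in TOX WT replicates 2 to 4. Other myeloid genes were present in it: Lyz2 stood at 887 CPM, the lowest of the TOX WT libraries, and the complement gene C1qc at 199.5 CPM, the highest of them. The NK cell and plasmacytoid dendritic cell lists were mixed in it as well. Tyrobp stood at 81.1, Fcer1g at 97.8 and Ly6d at 735 CPM, and Cox6a2, at 8.12 CPM, was the highest of the TOX WT libraries. Klrb1c, at 8.17 CPM, and other genes of these lists were lowest in it. Which cells made its granule transcripts was not tested. The same library had the highest TOX WT values of Nkg7, Ctsw, Prf1, Gzmk, Srgn and Gzmc, and the lowest of Gzma, Gzmb, Gzmm and Serpinb9. Its B cell and plasma cell markers, at 3414 CPM, were the lowest of the TOX WT libraries but above all TOX KO libraries.

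The library names carry numbers that run from 1 to 8 across the genotypes, and the comparison was repeated within numbers 1 to 3 and 4 to 8; the labels do not say what the numbers stand for. Within 4 to 8, with 3 libraries a genotype, Prf1 (log2 fold change -2.80, adjusted p 0.0135), Nkg7 (-2.03, 0.0473), Ctsw (-2.26, 0.0117) and Serpinb9 (-1.47, 0.0472) were called lower. Gzmb (-5.54, 0.0696) and Gzmk (-3.39, 0.105) were not called there, and neither was Gzma (adjusted p 0.0855). Within 1 to 3, 3 TOX KO libraries stood against TOX WT replicate 1 alone. A lone library has no spread of its own, so log2 fold changes alone are given here. They were -4.92 for Prf1, -5.33 for Nkg7, -2.82 for Ctsw and -1.12 for Serpinb9. For Gzmk the value was -11.9, with 2 of the 3 TOX KO libraries at 0 counts. Gzmb and Gzma had -1.92 and -2.55.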

How the data were processed

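RNA from sorted cells was amplified with SMART-seq V4 and sequenced as 50-base read pairs, per the labels' protocols. Each library has a deposited table of whole-number counts. The authors ran featureCounts 1.6.2 in paired mode over GENCODE M17 genes on GRCm38.p6, per the file headers. Those headers show no strand or multi-mapping option, so reads that match several genes may be missing and strand was not used. FastQC and STAR are named without a version in the submitters' processing notes.

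Counts were tested with edgeR 4.0.16 (R 4.3.3): TMM scaling, filterByExpr, a quasi-likelihood fit on genotype over all 10 libraries and Benjamini-Hochberg adjustment over 14214 genes, called under 0.05. CPM uses TMM-scaled library sizes, and log2 CPM a prior count of 2. Level per kilobase uses the gene length in the tables. Totals of 31939816 to 55784453 counts limit counting error only, while the SEs also hold the spread among libraries. The scripts were tested on simulated data. The 22 alternatives included limma 3.58.1 voom and DESeq2 1.42.0.

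The members and all gene and marker lists were chosen with earlier results of these data known. Genes named are the members, Tox, the called list genes with the 3 smallest adjusted p, and defining and abundant markers. The 2 genes with mean CPM of at least 8 most like each member in profile are named too. Rab27a, Stxbp2, Unc13d, Sytl3, Snap23, Lyst, Pacsin1, C1qc, Xbp1 and the uncalled ligands, receptors and regulators were named after their values were seen. No 2 libraries of a genotype agreed within sampling noise. Promoters came from RefSeq (GRCm38.p6) and transcript windows from GENCODE M21.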

Additional observations from a re-analysis of the deposited data

Results flagged for a closer look

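In 20 groups of values tested (10 genes in 2 genotypes), 2 held a library whose gap to the nearest other, relative to the range of the group, passed the 95% critical value of Dixon's test; chance flags about 1 group in 20. Gzmk was at 8.50 CPM in TOX KO replicate 4, the highest of 6, with the next library at 0.721 CPM. Gzmm was at 6.77 CPM in TOX KO replicate 2, the highest of 6, with the next at 2.24 CPM.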

How the results depend on the processing

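Over 22 alternatives, 214 of 220 log2 fold changes of members kept their direction. The exceptions were Gzmc, at -1.07 to 0.14 with a library left out (0.14 without TOX WT replicate 1) and 0.30 with the titles' numbers as a replicate block, and Gzmm, at -0.46 to 0.93 with a library left out (-0.46 without TOX KO replicate 2), -0.25 scaled to T cell receptor complex genes, -0.74 with library set as a term and -1.64 in library numbers 4 to 8 alone; the cause was not tested.

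Members called lower, 3 in all libraries, were 7 when scaled to T cell receptor complex genes, 7 with DESeq2 and 7 with limma-voom, 2 without immunoglobulin genes, 2 with no filter on low counts, and 1 to 6 with a library left out (6 without TOX WT replicate 1, 1 without TOX WT replicate 4). None was called higher under any alternative. Other pathway genes called lower, 5, were 13 with receptor scaling, 9 with DESeq2 and 4 to 7 with a library left out. The 0 called higher became 1 with DESeq2 and 0 to 1 with a library left out (1 without TOX WT replicate 1). Counts of calls within numbers 1 to 3 are left out, as the lone TOX WT library there has no spread of its own.

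All genes called lower, 384, were 221 without immunoglobulin genes, 1862 with receptor scaling, 999 with DESeq2, 680 with limma-voom, 1033 in numbers 4 to 8, 79 in numbers 1 to 3, and 143 to 1201 with a library left out. Genes called higher, 61, were 17 with receptor scaling, 39 with no filter, 613 with DESeq2, 204 with limma-voom, 116 with library set as a term, 121 in numbers 4 to 8, 316 in numbers 1 to 3, and 10 to 443 with a library left out. Without TOX WT replicates 1, 2, 3 and 4 in turn, 1201, 222, 411 and 143 genes were lower and 443, 14, 307 and 10 higher; without a TOX KO library, 262 to 327 were lower and 25 to 42 higher. The share of calls that were higher was 13.7%. It was 0.905% with receptor scaling, 38.0% with DESeq2, 42.8% without TOX WT replicate 3 and 26.9% without TOX WT replicate 1. The causes were not tested.

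The numbers in the titles do not pair the libraries: 2 of 4 same-numbered pairs correlated over 0.1 (range -0.249 to 0.295), and 1 TOX WT library correlated best with its own number. As a replicate block, the title number and the library number each gave 0 called members, 0 other pathway genes and 0 genes in either direction. In these fits 2474 and 452 genes had an unadjusted p under 0.05. Library numbers other than 2 and 6 occur in 1 genotype only, and either block leaves few libraries to measure spread. The 0 calls therefore cannot decide whether the differences hold within pairs. In TOX KO libraries, depth limits how exactly the 5 granzyme values of 0, in Gzma, Gzmb, Gzmc and Gzmk, can be read.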

Other observations

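Genes for other means of killing and for receptors of cytotoxic cells had a median log2 fold change of -3.45, beside -0.12 over all genes. Of the 12 tested, 2 fell and 0 rose, beside 2.7% and 0.429% of all genes. At an unadjusted p under 0.05 in edgeR, 7 were lower and 0 higher, beside 10.8% and 7.15% of all genes. DESeq2 called 7 lower and 0 higher (7.03% and 4.31% of all genes), and limma-voom 4 and 0 (4.78% and 1.44%). Slamf7, a SLAM family receptor, stood at 62.0 ± 36.2 CPM (n = 4) in TOX WT and 3.37 ± 3.87 CPM (n = 6) in TOX KO (edgeR adjusted p 0.0384 for a log2 fold change of -4.20, SE 0.94). Klrd1, which encodes CD94, stood at 12.4 ± 2.49 CPM (n = 4) in TOX WT and between 0.142 and 3.36 CPM in TOX KO (log2 fold change -3.05, SE 0.72, adjusted p 0.0487). Both calls were lost when some libraries were left out, in 6 and 7 of 10 fits, with library set as a term (adjusted p 0.0546 and 0.0523) and, for Klrd1, without immunoglobulin genes (0.0691); without them Slamf7 was at 0.05003. Fasl, the death receptor ligand, did not pass, with a log2 fold change of 1.12 (adjusted p 0.395), and neither did Ifng, at -3.85 (adjusted p 0.0894).

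Of 20 transcription factors and cytokine pathway genes known to steer cytotoxic programmes, 0 fell and 1 rose. At an unadjusted p under 0.05 in edgeR, 3 were lower and 4 higher. DESeq2 called 3 lower and 2 higher, and limma-voom 3 lower and 2 higher. The shares of all genes by these rules are those given for the killing genes. Zbtb7b, which encodes ThPOK, the factor that holds CD4 T cells off the CD8 programme, stood at 58.8 ± 34.6 CPM (n = 4) in TOX WT and 212 ± 68.1 CPM (n = 6) in TOX KO (log2 fold change 1.85, SE 0.43, adjusted p 0.0472), a call lost in 8 of 10 fits that left out a library, without immunoglobulin genes (0.0583), with no filter on low counts (0.0542) and when scaled to T cell receptor complex genes, where the log2 fold change was 1.04 (0.2497). Tbx21, which encodes T-bet, and Runx3 had log2 fold changes of -0.38 and -0.30 (adjusted p 0.884 and 0.855). Tbx21 stood at 88.3 CPM in TOX WT replicate 1 and 2.68 to 12.4 CPM in replicates 2 to 4, beside a TOX KO mean of 20.6 CPM. For Runx3 these values were 47.3, 7.47 to 13.7 and 15.9 CPM. For both genes the higher TOX WT mean thus turned on replicate 1, and the other TOX WT libraries lay below the TOX KO mean. Eomes and Prdm1 had -3.77 and -5.70 (adjusted p 0.179 and 0.0934).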
